A study of Mus musculus with 6 samples.

Results

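Activated mouse CD4+ T cells given shRNA against *Dyrk1a* were compared directly with cells treated with harmine, with the 2 libraries of *Dyrk1a* shRNA set against the 2 libraries of harmine. These 4 libraries were chosen from the 6 of the study by their labels alone, and the 2 libraries of untreated control shRNA are given beside them as a reference level that entered no test. All 23420 genes of the expected count table were considered, of which 10527 passed the filter on low counts and were tested.

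Splenic naive CD4+ T cells of 12 week old Balb/c mice were purified on magnetic columns and activated on plates coated with antibodies to CD3 and CD28 in all groups. Concentrated shRNA virus followed after 24 hr, carrying either a sequence against *Dyrk1a* or a scrambled one, and the cells were fed with medium and IL-2 another 24 hr later. One group with scrambled shRNA received harmine at 3.7 µM, and all cells were harvested 48 hr after feeding. So the harmine libraries carried control virus as well as the drug, and the *Dyrk1a* shRNA libraries carried no drug. The labels do not say which of the hairpins was used, what share of cells took up the virus, whether the cells without drug received vehicle, or whether the 2 libraries of a group came from separate animals or cultures. The p-values therefore measure the spread between these libraries, which may be technical. By the labels, both libraries of each group shared an i5 sequencing index that no other group carried, so index and treatment cannot be told apart.

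DYRK1A is a kinase of the DYRK family, which activates itself by phosphorylating its own tyrosine and then phosphorylates serine and threonine in other proteins. Its known substrates include NFAT transcription factors, the MuvB subunit LIN52, cyclin D and splicing factors of the SR family. Harmine is a plant alkaloid that competes with ATP in DYRK1A and, less strongly, in other DYRK and CLK kinases, and it also inhibits monoamine oxidase A. A hairpin is designed to lower the RNA of its target, whereas a kinase inhibitor acts on the protein, so both reach DYRK1A by different routes and need not share their other targets.

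The 4 libraries held 2678872 and 3274050 counts with *Dyrk1a* shRNA and 3441063 and 3747648 counts with harmine, against 1743428 and 1096345 in the controls. Levels are given as read counts normalised to sequencing depth (CPM), always with replicate 1 before replicate 2, and log2 fold changes are positive where a gene was higher with *Dyrk1a* shRNA. Genes of CD4 T cell identity were high in all libraries, with *Cd4* at 380 and 344 CPM with *Dyrk1a* shRNA and 328 and 369 CPM with harmine. Of 10 B cell markers, 5 passed the filter and all 5 lay above 0 (median log2 fold change 0.51), and the summed level of the whole list was 42.0 and 47.1 CPM with *Dyrk1a* shRNA, 33.3 and 36.1 CPM with harmine and 40.1 and 51.3 CPM in the controls. *Pax5*, a defining B cell factor, was the 1 member of the list at 0 in all 4 libraries. *Ebf1*, the highest member in each of them, was at 11.1 and 11.5 CPM with *Dyrk1a* shRNA and 10.4 and 10.3 CPM with harmine. The part of these cells in the results was not tested, and in such bulk samples fewer cells of a type and less RNA per cell cannot be told apart. Summed markers of myeloid cells ranged from 199 to 260 CPM and those of CD8 T and NK cells from 34.0 to 38.8 CPM over the 4 libraries, with both treatments overlapping, and those of erythroid cells and platelets from 18.0 to 23.5 CPM.

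*Dyrk1a* itself was examined first. Its level was 60.0 and 61.8 CPM with *Dyrk1a* shRNA and 74.6 and 77.4 CPM with harmine, while the controls stood at 58.2 and 82.5 CPM. Both *Dyrk1a* shRNA libraries were below both harmine libraries, and both lay between the 2 controls. The log2 fold change was -0.32 with a standard error of 0.15 and a 95% interval of -0.64 to 0.01, and edgeR's quasi-likelihood test gave an adjusted p of 0.507. The gene spans chr16:94570010-94695517 on the plus strand of mm10. The transcript did not show a reduction that passed the test against harmine-treated cells, nor did it lie outside the range of the 2 controls.

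Among the related kinases, none passed the test. *Clk1*, which phosphorylates SR proteins, had 339 and 287 CPM with *Dyrk1a* shRNA and 447 and 364 CPM with harmine, a log2 fold change of -0.37 ± 0.14 (SE, edgeR adjusted p = 0.405). *Clk4*, its closest relative, had 61.9 and 65.3 CPM against 81.1 and 77.6 CPM, a log2 fold change of -0.32 (standard error 0.15). Once trends with transcript length and GC content were removed, *Clk1* was at -0.17, *Clk4* at -0.07 and *Dyrk1a* at -0.36. Their adjusted p by edgeR were then 0.880, 0.965 and 0.674. *Clk2* and *Clk3* were at log2 fold changes of 0.05 and 0.11 with overlapping libraries. *Dyrk1b*, the nearest paralog of *Dyrk1a*, was at 0.20 (standard error 0.22), *Dyrk2* at 0.22 (standard error 0.20) and *Dyrk3* at 0.03 (standard error 0.32) on the log2 scale. *Maoa*, the monoamine oxidase that harmine blocks, was low at 6.49 and 6.47 CPM with *Dyrk1a* shRNA and 6.24 and 4.74 CPM with harmine. *Gsg2*, which encodes haspin, a histone H3 kinase, was at 19.9 and 19.4 CPM against 17.8 and 20.8 CPM. *Dyrk4* and *Maob* were too low to test. The dot plot of these kinases shows that at *Dyrk1a*, *Clk1* and *Clk4* the means of both groups were closer to each other than the 2 controls were.

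**Figure D1:**
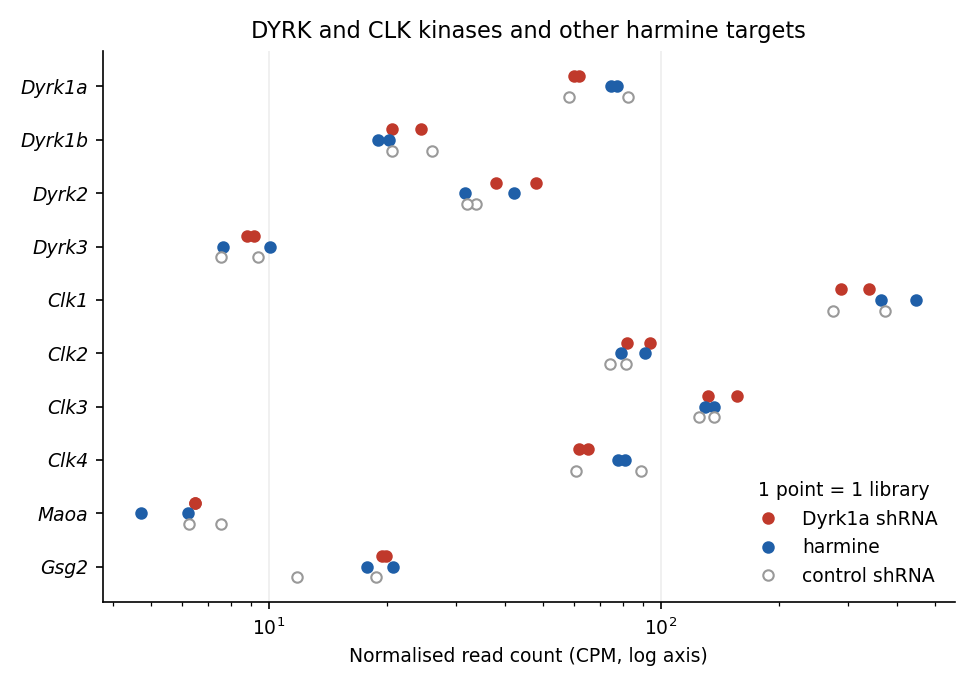
Levels of DYRK and CLK kinases and of 2 other harmine targets, *Maoa* and *Gsg2*. The horizontal axis is the normalised read count in CPM on a log axis, and each point is 1 library. *Dyrk1a* stands at 60.0 and 61.8 CPM with *Dyrk1a* shRNA and at 74.6 and 77.4 CPM with harmine, and the controls at 58.2 and 82.5 CPM lie on either side.

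Across the transcriptome, 4 genes passed the adjusted threshold of 0.05, which is 0.0380% of the genes tested, and all 4 fell with *Dyrk1a* shRNA relative to harmine. They were *Rps27* and *Rpl34*, which encode proteins of the small and the large ribosomal subunit, *Akr1c18*, a reductase that inactivates progesterone, and *Ms4a4b*, a membrane protein of T cells. At a nominal p below 0.05, that is before adjustment, 537 genes were higher (5.10%) and 525 lower (4.99%), together 1062 where 526 would be met by chance. This excess depended on the model. The Wald test of DESeq2 gave 435 such genes of the same 10527, and edgeR's fit of all 6 libraries gave 608 of 10607. Groups did not overlap in CPM at 4317 genes (41.0%), so that a lack of overlap between 2 and 2 libraries was common. The 95% interval of a gene reached a median of 0.43 to either side on the log2 scale, and at 8422 genes the whole interval lay within a 2-fold difference in either direction. Fitted differences of more than 2-fold were found at 114 genes. When all 6 libraries entered 1 fit, *Rps27* alone passed (adjusted p = 0.0175 by edgeR). *Rpl34*, *Akr1c18* and *Ms4a4b* kept log2 fold changes of -1.85, -1.10 and -0.93 there, with larger standard errors of 0.38, 0.25 and 0.23 and adjusted p of 0.545, 0.545 and 0.573. Without harmine replicate 1 the 4 calls became 24, and without *Dyrk1a* shRNA replicate 2 they became 19.

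*Rpl34* and *Rps27* each have a near-identical copy elsewhere in the genome, so their reads could not be assigned with certainty. *Rpl34* lies at chr3:130726831-130730398, and *Rpl34-ps1*, annotated by GENCODE as a processed pseudogene, at chr6:71124610-71124963. *Rps27* lies at chr3:90212522-90213651, and *Gm9846*, which RefSeq also names *Rps27rt*, at chr9:114982366-114982739. Over 354 aligned bases the transcripts of *Rpl34* and *Rpl34-ps1* in GENCODE M21 were identical at 352, and they differed by T132C and C318G, given as the base of *Rpl34*, its position counted from the first base of the open reading frame, and the base of *Rpl34-ps1*. The stretches around both positions are shown because, within the aligned bases, only reads that cross them tell the copies apart, with the base that differs in capitals.
Rpl34, bases 102 to 161: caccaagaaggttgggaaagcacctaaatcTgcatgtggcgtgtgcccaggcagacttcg
Rpl34-ps1, bases 102 to 161: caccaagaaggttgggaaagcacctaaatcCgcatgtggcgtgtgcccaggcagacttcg
Rpl34, bases 288 to 347: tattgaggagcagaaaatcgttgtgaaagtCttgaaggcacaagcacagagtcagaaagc
Rpl34-ps1, bases 288 to 347: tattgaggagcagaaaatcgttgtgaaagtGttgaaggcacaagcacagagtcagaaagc

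For the second pair, the transcripts of *Rps27* and *Rps27rt* were identical at all 341 aligned bases, so no base inside the aligned stretch separates them. The start of the open reading frame is shown once for each copy to make this visible.
Rps27, bases 1 to 60: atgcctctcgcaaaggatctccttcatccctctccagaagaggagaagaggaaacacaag
Rps27rt, bases 1 to 60: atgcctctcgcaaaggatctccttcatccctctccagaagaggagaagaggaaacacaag

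*Rpl34* was counted at 194 and 206 CPM with *Dyrk1a* shRNA and at 681 and 761 CPM with harmine, while the controls were far apart at 849 and 293 CPM. It fell by 1.85 on the log2 scale with *Dyrk1a* shRNA (standard error 0.13, adjusted p = 1.91e-06 by edgeR). The copy lay on the other side of 0. *Rpl34-ps1* had 1020 and 975 CPM with *Dyrk1a* shRNA and 538 and 714 CPM with harmine, a log2 fold change of 0.67 ± 0.14 (SE, edgeR adjusted p = 0.142) that passed once trends with transcript length and GC content were removed (0.85, adjusted p = 0.0238). *Rpl34* held 16.0% and 17.5% of the reads of both copies with *Dyrk1a* shRNA, 55.9% and 51.6% with harmine, and 40.6% and 34.3% in the controls. The sum of both copies was 1214 and 1182 CPM against 1219 and 1475 CPM, and its log2 fold change was -0.17 (95% interval -0.43 to 0.10, adjusted p = 0.678 by edgeR), an alternative chosen after seeing the data.

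*Rps27* likewise took a smaller share of the reads of its pair with *Dyrk1a* shRNA, whereas its copy had similar levels in both groups. It was counted at 21.4 and 11.5 CPM with *Dyrk1a* shRNA, at 91.8 and 167 CPM with harmine and at 195 and 251 CPM in the controls, and it fell by 3.02 on the log2 scale (standard error 0.32, adjusted p = 0.00483 by edgeR). *Gm9846* had 1257 and 1418 CPM against 1382 and 1415 CPM, a log2 fold change of -0.06 (standard error 0.12). *Rps27* took 1.67% and 0.802% of the reads of both copies with *Dyrk1a* shRNA, 6.23% and 10.6% with harmine, and 7.14% and 26.8% in the controls. Their sum had a log2 fold change of -0.17 (95% interval -0.43 to 0.08, adjusted p = 0.652 by edgeR). With the copies summed, no gene passed the adjusted threshold by edgeR and 1061 had a nominal p below 0.05. *Akr1c18* and *Ms4a4b* then stood at adjusted p of 0.0609 and 0.0708. Their unadjusted p by edgeR hardly moved, from 5.84e-06 to 5.79e-06 and from 1.36e-05 to 1.35e-05. The smaller p-values of *Rpl34* and *Rps27* no longer entered the adjustment. DESeq2, run on the copies unsummed, called 15 of the 2159 genes to which it gave an adjusted p.

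**Figure D2:**
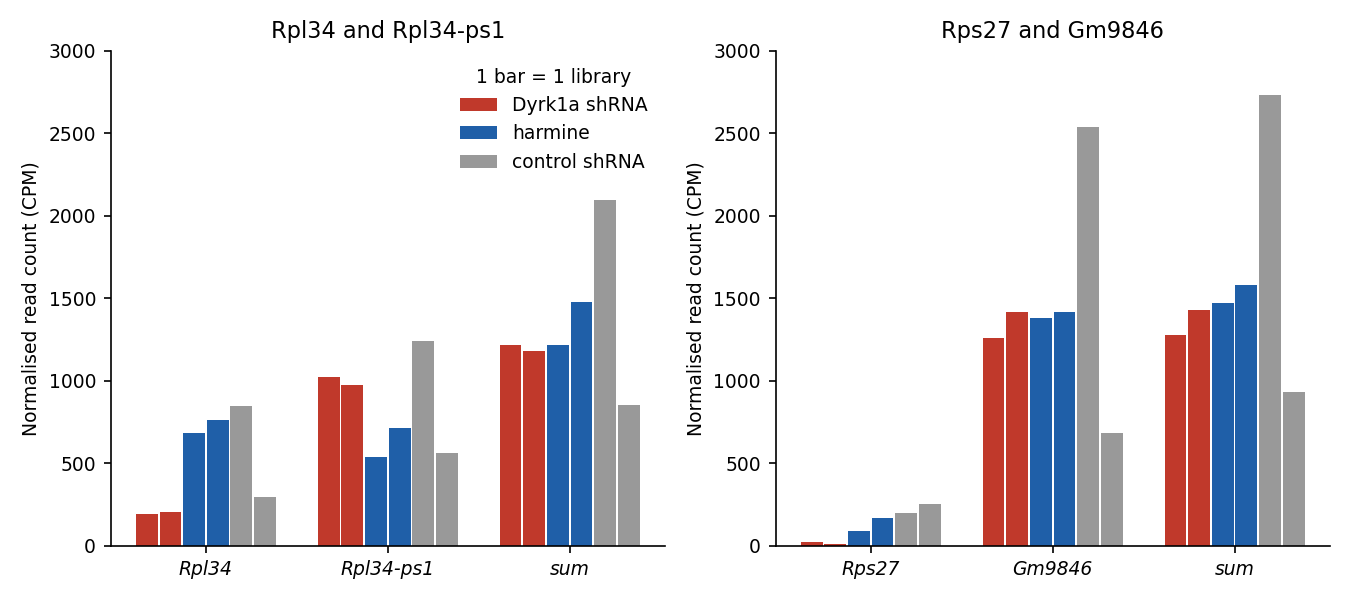
Normalised read counts in CPM (vertical axis, from 0) of *Rpl34* with *Rpl34-ps1* and of *Rps27* with *Gm9846*, and of the sum of each pair. Each bar is 1 library, with replicate 1 before replicate 2, in the order *Dyrk1a* shRNA, harmine and control. The bars of *Rpl34* at 194 and 206 CPM against 681 and 761 CPM stand beside those of *Rpl34-ps1* at 1020 and 975 CPM against 538 and 714 CPM, and the sums stand at 1214 and 1182 CPM against 1219 and 1475 CPM.

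*Akr1c18* and *Ms4a4b* were the other genes that passed. *Akr1c18*, at chr13:4132615-4150654, had 33.6 and 40.6 CPM with *Dyrk1a* shRNA and 77.8 and 82.4 CPM with harmine, while the controls, at 66.3 and 32.0 CPM, were both below the harmine libraries and lay on either side of the *Dyrk1a* shRNA libraries. It fell by 1.10 on the log2 scale with *Dyrk1a* shRNA (standard error 0.17, adjusted p = 0.0205 by edgeR). Its neighbours in the aldo-keto reductase cluster on chromosome 13, *Akr1c12* and *Akr1c13*, were looked at after their values were seen. *Akr1c13* had 9.93 and 12.4 CPM against 27.9 and 16.3 CPM, and *Akr1c12* had 0 and 0.294 CPM against 4.46 and 2.37 CPM. The 2 neighbours are 94.5% identical to each other and 69.8% and 69.3% to *Akr1c18*, and their sum was at -1.15 on the log2 scale (standard error 0.29, adjusted p = 0.218 by edgeR).

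*Ms4a4b*, at chr19:11443553-11467055, had 68.0 and 70.9 CPM with *Dyrk1a* shRNA and 138 and 126 CPM with harmine, while the controls, at 150 and 81.6 CPM, were both above the *Dyrk1a* shRNA libraries and lay on either side of the harmine libraries. It fell by 0.92 on the log2 scale (standard error 0.15, adjusted p = 0.0357 by edgeR). Both calls were lost once trends with transcript length and GC content were removed, leaving *Akr1c18* at -0.86 (adjusted p = 0.163) and *Ms4a4b* at -0.66 (adjusted p = 0.182). Without *Dyrk1a* shRNA replicate 1 both had an adjusted p of 0.456 by edgeR, without harmine replicate 2 they had 0.0598 and 0.0554, and without *Dyrk1a* shRNA replicate 2 *Ms4a4b* had 0.0658.

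A relation with GC content ran through the whole comparison. Over 9916 genes with a matched transcript, the log2 fold change and the GC content of the transcript had a Spearman correlation of 0.410, against 0.083 for transcript length. The 1984 genes with the least GC had a median log2 fold change of -0.18, and the 1983 genes with the most had 0.15. Each pairing of a *Dyrk1a* shRNA with a harmine library gave a correlation with GC between 0.217 and 0.376, whereas the 2 *Dyrk1a* shRNA libraries differed from each other by 0.039 and the 2 harmine libraries by 0.146. With trends in length and GC removed from each library, 3 genes passed. Of the 9916 genes, 649 then had a nominal p below 0.05, 330 of them higher and 319 lower. The part of this relation in the results for gene groups was not tested, and each group median printed below is given with and without it.

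**Figure D3:**
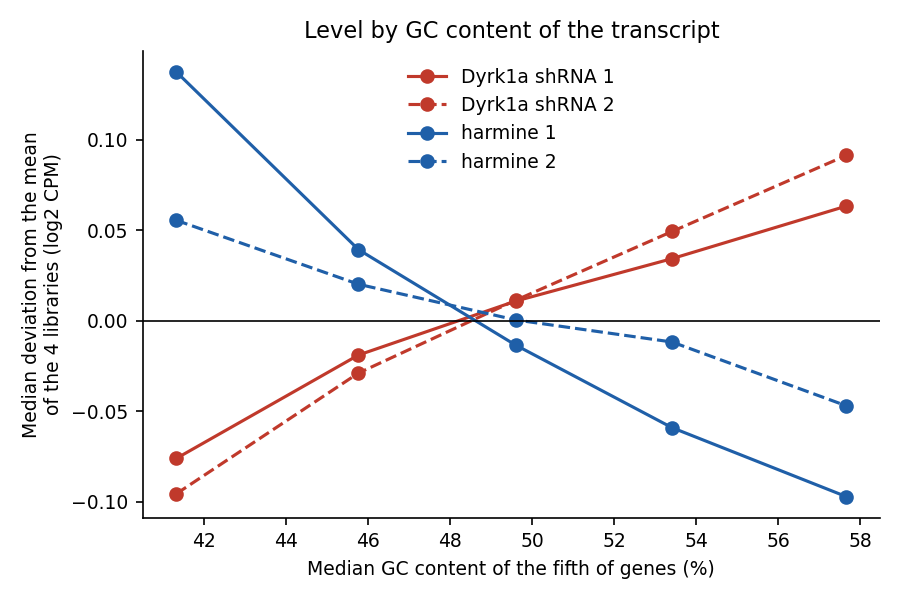
Level by GC content of the transcript in the 4 libraries compared. The horizontal axis is the median GC content of each of 5 bins of 1983 or 1984 genes, in percent, and the vertical axis is the median deviation of a library from the mean of the 4 libraries in log2 CPM. Both *Dyrk1a* shRNA lines go up from -0.08 and -0.10 in the lowest bin to 0.06 and 0.09 in the highest, and both harmine lines go down from 0.14 and 0.06 to -0.10 and -0.05.

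Of the genes that the naming rule took as lower with *Dyrk1a* shRNA, 5 are described below the 4 that passed, and none of the 9 described as higher passed. Of the lower ones, *Gpr83*, a receptor found on regulatory T cells, had 14.1 and 20.6 CPM with *Dyrk1a* shRNA and 33.0 and 46.3 CPM with harmine, a log2 fold change of -1.17 ± 0.24 (SE, edgeR adjusted p = 0.124). *Sh2d1a*, the adaptor SAP of SLAM receptors, had 41.6 and 51.8 CPM against 82.3 and 77.9 CPM, a log2 fold change of -0.77. *Myo6*, which encodes myosin VI, was at -1.05, *H3f3b*, which encodes histone H3.3, at -0.56, and *Spin4* at -0.91 on the log2 scale. Adjusted p-values of these 5 genes ran from 0.124 to 0.166. With trends in length and GC removed they were at -1.17, -0.44, -1.02, -0.41 and -0.59 in this order. Their adjusted p by edgeR then ran from 0.163 to 0.652. The controls were not uniformly on the side of either treatment, with *H3f3b* at 449 and 410 CPM and *Spin4* at 12.5 and 18.5 CPM.

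On the higher side, *Furin*, the protease that cleaves the precursor of TGF-β1, had 68.7 and 62.4 CPM with *Dyrk1a* shRNA and 35.1 and 35.5 CPM with harmine, a log2 fold change of 0.89 ± 0.16 (SE, edgeR adjusted p = 0.0939). *Tnfrsf8* encodes CD30, a TNF receptor of activated T cells, and had 42.4 and 38.5 CPM against 16.0 and 21.1 CPM, a log2 fold change of 1.12. *Prex1*, an exchange factor for Rac, had 87.1 and 86.2 CPM against 47.5 and 51.1 CPM, a log2 fold change of 0.81. *Furin* and *Prex1* kept replicates close together in both groups. *Mxd4*, a repressor that pairs with MAX, had 32.1 and 20.0 CPM against 8.62 and 11.8 CPM, and the controls were as low as the harmine libraries at 7.51 and 6.73 CPM. *Nkain1* was at 34.4 and 17.6 CPM against 7.43 and 8.95 CPM, with the controls likewise low at 8.76 and 10.1 CPM. *Mpst*, an enzyme of sulfur metabolism, was at 1.35, *Tatdn2* at 1.21, *Ckb*, a creatine kinase, at 0.69 and *Lgals3*, which encodes galectin-3, at 0.61 on the log2 scale. *Ckb* had 189 and 157 CPM with *Dyrk1a* shRNA, 104 and 110 CPM with harmine and 175 and 182 CPM in the controls. Controls of *Lgals3*, at 494 and 297 CPM, lay on either side of the *Dyrk1a* shRNA libraries. Controls of *Furin*, at 35.7 and 57.2 CPM, *Tnfrsf8*, at 23.8 and 32.0 CPM, and *Prex1*, at 54.5 and 74.9 CPM, lay between the groups. Those of *Mpst*, at 20.7 and 12.6 CPM, and *Tatdn2*, at 22.5 and 37.9 CPM, were below the *Dyrk1a* shRNA libraries. Adjusted p-values of these 9 genes ran from 0.0939 to 0.144. With the trends removed all 9 stayed above 0, from 0.48 at *Ckb* and 0.58 at *Prex1* to 1.51 at *Nkain1*. Their adjusted p by edgeR then ran from 0.163 to 0.409.

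**Figure D4:**
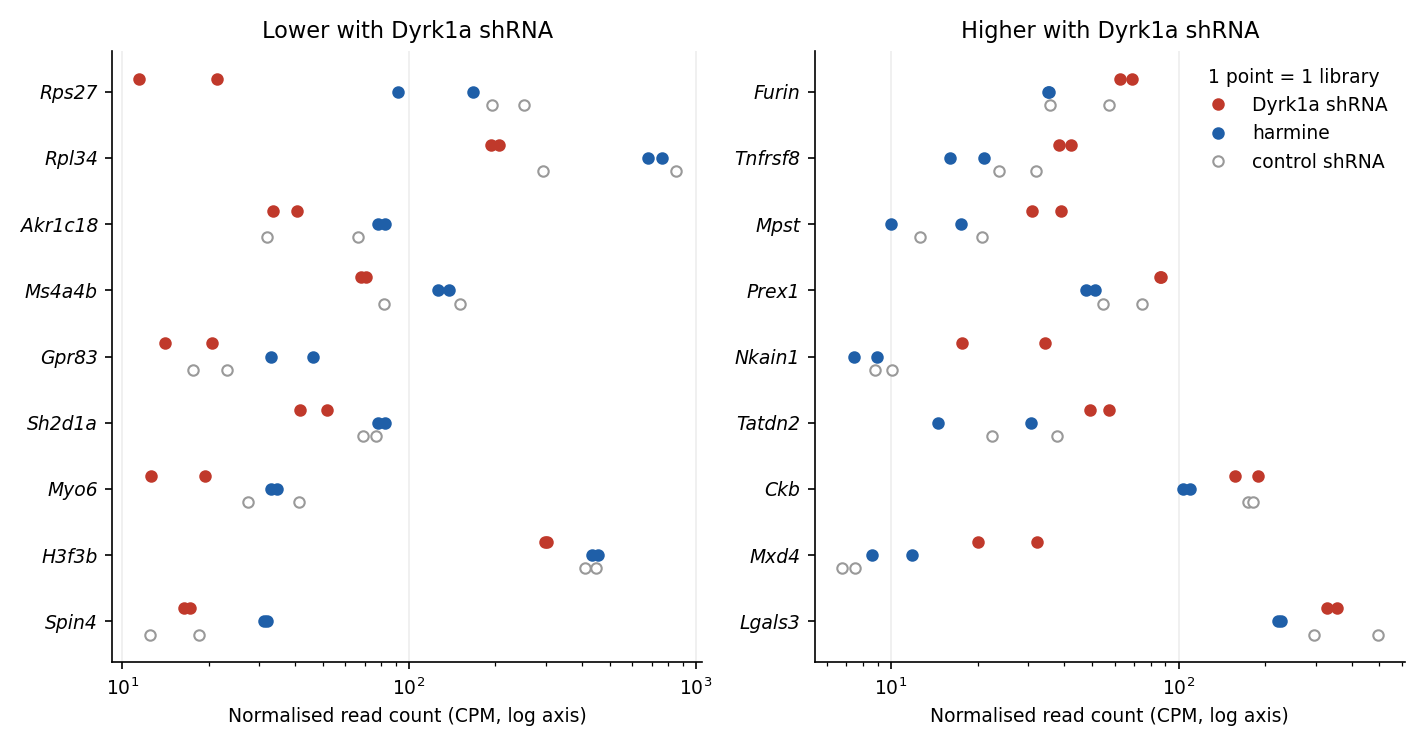
Normalised read counts in CPM on a log axis of the 9 genes described as lower (left) and the 9 described as higher (right) with *Dyrk1a* shRNA. Each point is 1 library, and open points are controls that entered no test. *Rps27*, *Rpl34*, *Akr1c18* and *Ms4a4b* passed the adjusted threshold, and the controls lie on either side of the *Dyrk1a* shRNA libraries for *Akr1c18*, at 66.3 and 32.0 CPM, and on either side of the harmine libraries for *Ms4a4b*, at 150 and 81.6 CPM.

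No member of any helper T cell list passed the adjusted threshold by edgeR. These lists are therefore described by counts at a nominal p below 0.05 and by medians. Over all genes tested, 50.4% lay above 0 and 49.6% below, with a median of 0.00. Of all these genes, 5.10% were higher and 4.99% lower at a nominal p below 0.05. Of 19 Treg genes tested, 3 were higher and 6 lower by this measure, with a median log2 fold change of -0.15 that was -0.14 with length and GC trends removed. *Ctla4*, an inhibitory receptor, had 225 and 241 CPM with *Dyrk1a* shRNA and 306 and 372 CPM with harmine. *Folr4*, the folate receptor family member of Treg cells also called FR4, had 184 and 173 CPM against 236 and 236 CPM, and its controls lay at 203 and 136 CPM. *Capg*, an actin capping protein, went the other way with 299 and 263 CPM against 220 and 200 CPM. Together with *Gpr83*, these were the 4 members with the smallest p, at log2 fold changes of -0.54, -0.40, 0.42 and -1.17.

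Of 20 Th1 and cytotoxic genes tested, 15 were above 0, their median being 0.21 on the log2 scale (0.29 with the trends removed), and 5 were higher and 1 lower at a nominal p below 0.05. Both chains of the IL-12 receptor were among them. *Il12rb1* had 66.1 and 57.6 CPM with *Dyrk1a* shRNA and 34.5 and 43.2 CPM with harmine, and *Il12rb2* had 152 and 124 CPM against 95.7 and 105 CPM. *Prf1*, which encodes the pore-forming perforin, had 30.6 and 25.3 CPM against 13.4 and 16.8 CPM, a log2 fold change of 0.87 ± 0.23 (SE, edgeR adjusted p = 0.218). *Id2*, a helix-loop-helix regulator, was the exception at -0.34 on the log2 scale. The lineage factor *Tbx21*, picked for its role after the values were seen, was scarce at 4.20 and 4.12 CPM against 3.86 and 2.90 CPM. The median of the 4 libraries did not overlap between the groups for this list, and without single libraries it ran between 0.20 and 0.35.

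Of 24 Th17 and follicular helper genes tested, 3 were higher and 4 lower at a nominal p below 0.05. Their median was 0.19 (0.19 with the trends removed), and it was 0.00 without *Dyrk1a* shRNA replicate 1 and 0.04 without harmine replicate 1. *Il21*, a cytokine of both subsets, had 55.4 and 55.0 CPM against 74.6 and 95.0 CPM, and the costimulatory receptor *Icos* had 342 and 323 CPM against 417 and 474 CPM, with log2 fold changes of -0.62 and -0.42. The follicular helper markers *Cxcr5*, *Bcl6* and *Pdcd1*, picked after the values were seen, were at 0.46, 0.28 and 0.28 with standard errors of 0.73, 0.24 and 0.19. *Il1r1*, the IL-1 receptor of Th17 cells, was at 1.10 from low levels of 11.5 and 8.53 CPM against 3.57 and 5.53 CPM. Of 8 Th2 genes tested, 7 lay above 0, and 1 was higher and none lower at a nominal p below 0.05. Their median was 0.20 (0.27 with the trends removed), and it was -0.07 without harmine replicate 1. Among them *Gfi1* was at 0.38 and the lineage factor *Gata3* at 0.02 on the log2 scale.

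Genes of the T cell receptor and NFAT response, the pathway in which DYRK1A phosphorylates NFAT, were split, with 3 of 36 higher and 3 lower at a nominal p below 0.05 and a median of 0.12 (0.01 with the trends removed). *Dusp2*, a phosphatase of MAP kinases, had 69.9 and 54.1 CPM with *Dyrk1a* shRNA and 34.8 and 37.4 CPM with harmine, a log2 fold change of 0.77 ± 0.18 (SE, edgeR adjusted p = 0.164). *Egr1*, an immediate early factor, was at 1.37 on the log2 scale, with 14.1 and 8.82 CPM against 5.65 and 3.16 CPM and controls at 20.0 and 4.21 CPM. The 2 diacylglycerol kinases that dampen receptor signaling lay on opposite sides, *Dgkz* at 0.34 and *Dgka* at -0.33 (0.11 and -0.39 with the trends removed). Of 20 genes of the receptor complex and its proximal kinases, 4 were higher and 2 lower, with a median of 0.13 (0.09 with the trends removed). Among them were *Plcg1* at 0.45, *Zap70* at 0.36, *Csk* at 0.34 and *Cd3g* at -0.37. With the trends removed these were at 0.29, 0.20, 0.15 and -0.09, none at a nominal p below 0.05. Of 29 cytokine receptor and signaling genes, *Bcl2l1*, an inhibitor of cell death, was at 0.53 and *Socs2*, a feedback inhibitor, at -0.67 with *Dyrk1a* shRNA replicate 1 at 175 CPM and the other 3 libraries at 322 to 435 CPM.

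Of 25 naive and quiescence genes tested, 1 was higher and 3 lower at a nominal p below 0.05. Their median was -0.06 (-0.04 with the trends removed). *Klf2*, which keeps T cells quiescent, had 48.1 and 49.4 CPM with *Dyrk1a* shRNA and 63.6 and 67.4 CPM with harmine, and *Cdkn1b*, the CDK inhibitor p27, had 67.6 and 54.1 CPM against 99.2 and 71.1 CPM. Their log2 fold changes were -0.42 and -0.49. *Slfn2*, needed for T cell quiescence, was at 0.34.

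The list of S100 proteins, annexins and LY6 antigens also held *Lgals1*, *Lgals3*, *Vim*, *Crip1*, *Thy1*, *Cd2*, *Cd52* and *Glrx*. Several of its members are used as markers of activated T cells. It had the largest share of nominally higher members among the 27 lists, at 29.2%. Of 24 tested, 18 (75.0%) lay above 0, against 50.4% of all genes tested. At a nominal p below 0.05, 7 were higher and none lower, against 5.10% and 4.99% of all genes. None passed the adjusted threshold of edgeR. With the trends removed, 8 were higher and none lower, against 330 and 319 of 9916 genes. The median log2 fold change was 0.24, was 0.26 with the trends removed, and ran from 0.13 to 0.29 when single libraries were left out. *S100a4* had 19.9 and 36.8 CPM with *Dyrk1a* shRNA and 11.6 and 17.1 CPM with harmine, *Anxa6* had 302 and 256 CPM against 212 and 216 CPM, and *Lgals1* had 283 and 321 CPM against 209 and 252 CPM. The controls were wide apart for *S100a4* at 68.2 and 28.6 CPM and for *Lgals1* at 623 and 293 CPM, above or within the range of both treatments.

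Splicing regulators leaned the other way, and they include substrates of DYRK and CLK kinases. Of 35 SR proteins and splicing regulators tested, 27 (77.1%) lay below 0, against 49.6% of all genes tested. At a nominal p below 0.05, 14 (40.0%) were lower and none higher, against 4.99% and 5.10% of all genes. None passed the adjusted threshold of edgeR. *Hnrnpa2b1*, which binds pre-mRNA, had 455 and 505 CPM with *Dyrk1a* shRNA and 701 and 675 CPM with harmine, a log2 fold change of -0.52 ± 0.12 (SE, edgeR adjusted p = 0.196). *Srsf3* had 171 and 183 CPM against 240 and 277 CPM, *Luc7l2*, a component of the U1 particle, had 175 and 175 CPM against 240 and 251 CPM, and *Tra2b*, an exon activator, had 74.9 and 80.9 CPM against 111 and 106 CPM. The groups did not overlap at 23 of the 35, these 4 genes of smallest p included, against 41.0% of all genes tested. The list has a low median GC content of 42.9% against 49.6% over all genes. Its median log2 fold change of -0.24 became -0.11 once the trends were removed. Then 6 members were lower and none higher at a nominal p below 0.05, against 319 and 330 of 9916 genes.

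Mitotic genes leaned lower with *Dyrk1a* shRNA, whereas those of DNA replication did not. Of 44 mitosis and cytokinesis genes, 38 (86.4%) lay below 0, against 49.6% of all genes tested. The median was -0.19 (-0.17 with the trends removed). At a nominal p below 0.05, 8 (18.2%) were lower and none higher, against 4.99% and 5.10% of all genes. With the trends removed, 4 were lower and none higher, against 319 and 330 of 9916 genes. None passed the adjusted threshold of edgeR. *Ttk*, the spindle checkpoint kinase MPS1, had 7.26 and 8.53 CPM with *Dyrk1a* shRNA and 18.7 and 15.5 CPM with harmine, a log2 fold change of -1.10 ± 0.29 (SE, edgeR adjusted p = 0.218). The kinesins *Kif20b* and *Kif23* were at -0.68 and -0.55 and the spindle protein *Ckap2* at -0.61. This median rested in part on 1 library, since without harmine replicate 1 it was -0.02, and the medians of the 4 libraries overlapped between the groups. Of 42 DNA replication genes, 1 was higher and 3 lower, with a median of -0.01. With the trends removed the median was -0.02, and none was higher or lower at a nominal p below 0.05. The histone chaperone subunit *Chaf1a* was at 0.53, the primase subunit *Prim1* at -0.54, the clamp loader subunit *Rfc3* at -0.43, and *Rpa3*, which binds single-stranded DNA, at -0.54, a value that became 0.03 with the trends removed.

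Of 23 genes of the DREAM complex and cell cycle regulators, the complex that DYRK1A helps to assemble through LIN52, 1 was higher at a nominal p below 0.05, *E2f5* at 0.89 with 13.7 and 11.5 CPM against 8.62 and 5.00 CPM. The median was 0.01 (0.01 with the trends removed). *Ccnd2*, which encodes a D-type cyclin, had 551 and 516 CPM with *Dyrk1a* shRNA and 482 and 430 CPM with harmine, *Cdk6*, its partner, was at 0.28, and *Cdkn2c*, the inhibitor p18, was at -0.53. Of 10 genes of the MYC, MAX and MXD network, *Mxd4* had a log2 fold change of 1.32 ± 0.29 (SE, edgeR adjusted p = 0.144), and *Max*, *Mxi1* and *Mlxip* were at 0.33, -0.20 and 0.12.

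Most members of 2 large sets of housekeeping genes lay below 0, by small amounts, where 49.6% of all genes tested did. Over all genes, 4.99% were lower and 5.10% higher at a nominal p below 0.05. With the trends removed, 319 of 9916 were lower and 330 higher. Of 81 cytosolic ribosomal protein genes, 72 lay below 0 with a median log2 fold change of -0.13 (-0.06 with the trends removed), and 10 were lower and none higher at a nominal p below 0.05, of which *Rpl34* and *Rps27* passed the adjusted threshold of edgeR. With the trends removed, 60 lay below 0, and 5 were lower and 1 higher. *Rpl22l1* had 342 and 321 CPM with *Dyrk1a* shRNA and 457 and 528 CPM with harmine, and *Rpl39* had 673 and 746 CPM against 1034 and 983 CPM. Of 64 subunits of mitochondrial oxidative phosphorylation encoded in the nucleus, 53 lay below 0 with a median of -0.14 (-0.09 with the trends removed), and 1 was higher and 9 lower. With the trends removed, 44 lay below 0, and 2 were higher and 5 lower. *Ndufa1* of complex I had 81.4 and 79.4 CPM against 110 and 148 CPM, *Atp5l* of the ATP synthase 94.3 and 121 CPM against 157 and 167 CPM, and *Ndufb3* and *Cox7b* were at -0.66 and -0.49 on the log2 scale. The 2 controls were farther apart than the treatments for some of these genes, with *Rpl39* at 1676 and 554 CPM and *Ndufa1* at 248 and 67.3 CPM.

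**Figure D5:**
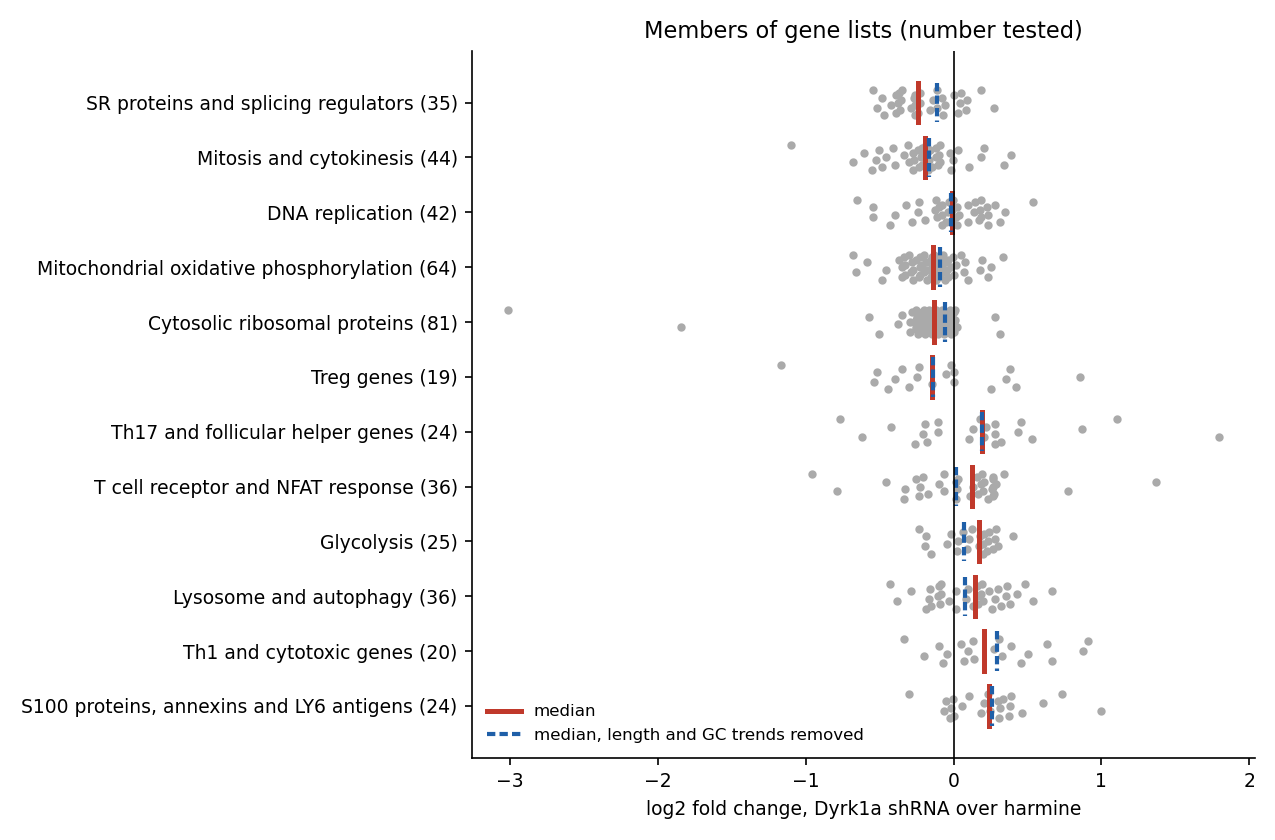
Log2 fold changes, *Dyrk1a* shRNA over harmine, of the tested members of 12 gene lists, with the number of members in parentheses. Each grey point is 1 gene, the red line is the median, the dashed blue line is the same without the trends in length and GC, and the black vertical line is the median of all genes. Splicing regulators have the lowest median of these lists at -0.24, which becomes -0.11, and S100 proteins, annexins and LY6 antigens have the highest at 0.24, which becomes 0.26.

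Glycolysis and lysosomal genes had medians slightly above 0. Of all genes tested, 50.4% lay above 0, and 5.10% were higher and 4.99% lower at a nominal p below 0.05. Of 25 glycolysis genes, 19 lay above 0 with a median of 0.17 (0.07 with the trends removed, and 0.01 without *Dyrk1a* shRNA replicate 1), and 2 were higher at a nominal p below 0.05. *Aldoa* had 3890 and 2600 CPM with *Dyrk1a* shRNA and 2703 and 2216 CPM with harmine, groups that overlapped, and *Pkm*, the last kinase of the pathway, had 4039 and 3400 CPM against 3106 and 3021 CPM. Of 36 lysosome and autophagy genes, 5 were higher and 1 lower, with a median of 0.15 that was 0.07 with the trends removed and 0.02 without *Dyrk1a* shRNA replicate 1. *Gabarapl1*, which coats autophagosomes, had 104 and 90.3 CPM against 69.8 and 53.2 CPM, *Psap*, the precursor of saposins, 441 and 316 CPM against 268 and 254 CPM, and the autophagy receptor *Sqstm1* was at 0.43, while the protease *Ctss* was at -0.43 on the log2 scale.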

How the data were processed

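Polyadenylated RNA of 6 libraries was measured by RNAseq, of which the 2 of *Dyrk1a* shRNA and the 2 of harmine were compared. The authors aligned reads to mm10 and estimated expected counts for each gene with RSEM, deposited in 1 table without normalization, and TopHat2 2.0.13 and DESeq are also named in the submitters' processing notes. The RSEM and annotation versions are not given in the sources used here.

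For the 4 libraries alone, whole-number rounding was followed by edgeR 4.0.16 (R 4.3.3), with TMM scaling, genes kept by filterByExpr at minimum count 10, a robust quasi-likelihood model, two-sided p-values and Benjamini-Hochberg adjustment over every gene tested at a threshold of 0.05. Printed CPM use TMM factors over all 6 libraries. The libraries of a pair differed by more than sampling noise (chi-square per degree of freedom 3.04 with *Dyrk1a* shRNA and 3.25 with harmine). No set test was run, and 27 gene lists and 5 marker lists are described by counts and medians.

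Named genes are, per direction, up to 10 that passed and did not overlap, taken by size of change and filled by smallest unadjusted p, then the DYRK and CLK kinases, then the 4 smallest p-values of each list. The members, lists and tests were chosen with earlier results of these data known. Genes picked outside the rule are marked as such in the text, and a few that it would name are left out here. Trends with transcript length and GC content were removed per library with natural splines of 4 degrees of freedom. Positions and transcripts come from GENCODE M21 on GRCm38, the assembly of mm10, and from RefSeq for *Gm9846*. Transcripts were aligned with Biopython 1.88.

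The alternatives tried were library size scaling, size factors of DESeq2 1.42.0, its Wald test, unfiltered genes, a stricter minimum count of 50, a block for replicate number, 1 fit of all 6 libraries, thinning to the smallest library, removal of the trends, leaving out each library and, chosen after seeing the data, sums of near-identical copies.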

Additional observations from a re-analysis of the deposited data

How the results depend on the processing

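The 4 calls were 5 with scaling by library size, 4 with DESeq2's size factors, 4 with all libraries thinned to the smallest, 3 with a minimum count of 50 and 3 with the trends removed. They were 15 with DESeq2's Wald test (6 among list members, against 2 in the main fit), 105 without a filter (26 among list members), 1 in the fit of all 6 libraries (1 among list members) and 0 with near-identical copies summed. DESeq2 gave no adjusted p for 8368 genes, with 2 of the 4 called genes among them. Leaving out single libraries gave 3 to 24 calls, and 2 to 5 among list members; a group reduced to 1 library is then assumed to vary like the other.

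With the replicate number as a block there were 651 calls, 325 higher and 326 lower, all 4 of the main calls among them, and 99 among list members. Deviations of libraries with the same number from their group means had a correlation of 0.249 over the 2 numbers, and the labels do not say what a number shares, so the numbers were not taken to pair the libraries.

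Of 130 genes that the naming rule or the text picked, 114 kept the sign of their fold change in all alternatives that gave a value. With the trends removed, *Dyrk1b* (-0.011), *Dyrk3* (-0.012), *Clk2* (-0.092), *Clk3* (-0.0041), *Mlxip* (-0.041), *Rpa3* (0.025), *Ddx3y* (0.049), *Eif2s3y* (0.14) and *Uty* (0.26) turned, and so did *Dyrk3* (-0.019) with thinning. When single libraries were left out, values crossed 0 for *Dyrk3* (-0.17 to 0.23), *Clk2* (-0.059 to 0.15), *Clk3* (-0.016 to 0.23), *Mlxip* (-0.14 to 0.33), *Gsg2* (-0.083 to 0.14), *Tnrc6b* (-0.33 to 0.0016), *Xpo5* (-0.45 to 0.13), *Il24* (-0.11 to 0.50), *Stat5a* (-0.023 to 0.55), *Kdm5d* (-0.40 to 0.11), *Uty* (-0.42 to 0.44) and *Gm9846* (-0.15 to 0.021). The cause was not tested. Differences under 0.43 on the log2 scale lie within the median interval of a gene.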

Other observations

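The remaining gene lists had no member past the adjusted threshold of edgeR and medians within 0.1 of 0 except the sex-linked genes. Of 29 interferon response genes tested, 2 were higher and 2 lower at a nominal p below 0.05. *Ly6a*, which encodes the surface antigen Sca-1, had 206 and 209 CPM with *Dyrk1a* shRNA and 103 and 163 CPM with harmine, below the controls at 332 and 282 CPM. *Gbp7* and *Gbp2*, which encode guanylate-binding proteins, were at log2 fold changes of -0.58 and -0.37, and *Oas3*, a sensor of double-stranded RNA, at 0.48. Among 11 small RNA pathway genes, through which a hairpin is processed, *Tarbp2*, the partner of Dicer, had 73.0 and 68.5 CPM against 52.9 and 58.4 CPM, and *Tnrc6a*, *Tnrc6b* and *Xpo5* were at 0.20, -0.15 and -0.19.

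Of 35 genes of the amino acid and unfolded protein response, 3 were higher and 2 lower. The transporter *Slc7a5* and the folate enzyme *Mthfd2* were at 0.52 and 0.41, and *Xbp1* and *Manf* of the unfolded protein response at -0.30 and -0.36 on the log2 scale. Of 17 heat shock genes, *Hsph1* was at 0.47, *Hsp90ab1* at 0.27, *Hspe1* at -0.29 and *Bag3* at 0.58. Of 15 genes of the aryl hydrocarbon receptor and antioxidant response, *Nfe2l2*, the factor NRF2, had 42.8 and 35.6 CPM against 25.6 and 28.7 CPM, *Gsr* was at 0.44, and *Tiparp*, a target of the receptor, at -0.41. Of 31 cholesterol and fatty acid synthesis genes, *Fasn* was at 0.35, and of 20 p53 targets, *Rrm2b* was at -0.78 from 6.49 and 4.71 CPM against 9.80 and 9.21 CPM. The 4 sex-linked genes tested had a median of -0.18, which became 0.10 with the trends removed, and *Ddx3y* and *Eif2s3y* were present at 77.1 to 93.7 CPM and 142 to 167 CPM over the 4 libraries.

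A pair of gene models, picked after their values were seen, were at or near 0 with *Dyrk1a* shRNA and did not pass the test. *Gm5643*, annotated as a processed pseudogene, had 0 and 0.588 CPM with *Dyrk1a* shRNA, 57.0 and 13.9 CPM with harmine and 87.0 and 58.9 CPM in the controls (adjusted p = 0.277 by edgeR). *Gm4724* was at 0 in both *Dyrk1a* shRNA libraries and in both controls and had 22.9 and 6.05 CPM with harmine (adjusted p = 0.124 by edgeR).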
